A study of Caenorhabditis elegans with 6 samples.

Results

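The sodium leak channel complex of Caenorhabditis elegans was examined in sorted RIS neurons, where each of its genes was higher than in whole larvae. Its genes were chosen by symbol, namely nca-1, nca-2, unc-79, unc-80 and nlf-1. Of these 5 symbols, 4 are found among the 12072 genes of the authors' deposited table. No row carries the symbol nca-1. The table lists that gene, from background knowledge of the worm's nomenclature, under its other symbol unc-77 (WBGene00006809), a pairing that the annotation tables used here do not give. Values of unc-77 are therefore given beside those of the 4 genes found by symbol, and counts are stated with and without it.

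The channel conducts a small, steady inward sodium current that depolarizes neurons at rest and so sets how readily they fire. NCA-1 and NCA-2 are alternative pore-forming subunits, each a single polypeptide of repeated domains related to voltage-gated calcium and sodium channels, and are the worm counterparts of mammalian NALCN. UNC-79 and UNC-80 are large accessory proteins needed for the channel's stability and its delivery to axons, and NLF-1 is an endoplasmic reticulum protein that promotes that delivery. Worms that lack both pore subunits, or any of the 3 other genes, show the fainting locomotion known as the fainter phenotype. In Drosophila the channel helps to set the excitability of circadian clock neurons, and in mice a mutation of Nalcn alters sleep.

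RIS is a GABA- and peptide-releasing interneuron whose activity brings on sleep-like quiescence. The 3 RIS libraries came from synchronized L1 larvae of the strain RIS::mKate, in which the flp-11 promoter drives the mKate marker, and the cells were sorted by flow cytometry. The 3 reference libraries came from whole synchronized L1 larvae of the strain N2, frozen over liquid nitrogen, and include RIS and all other cells. Strain, sorting and cell type change together between the groups and cannot be told apart. The deposited values are a log2 fold change of RIS over reference, a mean log2 CPM (read counts scaled to library size) over both groups, an F statistic, a p-value and its adjusted p, so neither the depth nor the level or spread of single libraries is known. Nothing in the labels says that libraries of a group came from separate cultures, so the p-values reflect the spread among these libraries alone, and that spread may be technical. In bulk samples, fewer cells of a type and less RNA per cell cannot be told apart.

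The sorted cells carried the markers of their label. All 7 RIS markers were higher in the authors' deposited table, where 9.84% of all genes were. Their log2 fold changes ran from 5.33 for unc-46 to 9.75 for flp-11, the gene of the sorting promoter. The sorting notes also name another neuron, AVK, and mCherry, a marker other than the mKate of the strain. None of the 4 AVK markers passed an adjusted p of 0.05 by the edgeR-format test in the authors' deposited table (at an unadjusted p below 0.05, 0 were higher and 1 lower). Taking the all-gene median as zero, 2 of the 4 passed as higher, beside 16.6% of all genes. They were unc-42 at an adjusted p of 0.0414 and flp-1 at one of 0.0452. All 7 RIS markers passed as well. Of markers of other tissues, 5 of 7 for body wall muscle, 5 of 6 for pharynx, 4 of 6 for hypodermis, 6 of 7 for intestine and 0 of 4 for germline were lower in the authors' deposited table, where 26.4% of all genes were. With the all-gene median as zero these counts were 4, 5, 4, 3 and 0, where 20.3% of all genes were lower. On that scale 1 of 7 muscle markers and 1 of 6 pharynx markers were higher, beside 16.6% of all genes. As deposited, 1 pharynx marker was higher, as were 1 of 8 markers of ciliated sensory neurons and 1 of 7 of cholinergic motor neurons in the authors' deposited table. More members of both neuron lists were lower in the authors' deposited table, namely 5 of the 8 ciliated and 2 of the 7 cholinergic markers. The matching shares of the whole table were 9.84% for higher calls and 26.4% for lower calls. Over all genes of the authors' deposited table the log2 fold change had a median of −0.78, so the typical gene lies below its zero.

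In the authors' deposited table the 4 genes found by symbol were all higher in RIS under an adjusted p of 0.05, and unc-77 made it 5 of 5. Across all genes of the authors' deposited table, 9.84% were called higher, 26.4% lower and 36.2% in either direction. All 5 were also higher at an adjusted p of 0.01, where 4.9% of all genes were. The median log2 fold change was 3.43 over the 4 genes and 3.47 over the 5, against −0.78 for all genes of the authors' deposited table. From the highest to the lowest, the 5 genes spanned 1.0 on the log2 scale, which is a factor of 2.

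The pore-forming subunits were both higher. In the authors' deposited table, nca-2 (WBGene00003558) stood at 3.31 (log2 fold change), or 9.91-fold (approximate 95% interval 4.20 to 23.4-fold, adjusted p = 0.00563). In the authors' deposited table, unc-77 stood at 4.21, or 18.5-fold (interval 9.04 to 37.9-fold, adjusted p = 0.00260). The gene found as unc-77 thus had the higher point estimate of the pair, by 0.90 on the log2 scale, but the intervals overlap and the difference was not tested, because the table holds no values per library. Both pore genes lay above the 95th percentile of log2 fold change among all genes of the authors' deposited table, nca-2 at 96.1 and unc-77 at 97.8.

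The accessory subunits moved by nearly the same amount. In the authors' deposited table, unc-79 (WBGene00006811) stood at 3.47 (log2 fold change), or 11.1-fold (interval 5.42 to 22.8-fold, adjusted p = 0.00379). In the authors' deposited table, unc-80 (WBGene00006812) stood at 3.38, or 10.4-fold (interval 5.59 to 19.5-fold, adjusted p = 0.00301). Their point estimates differed by 0.09 on the log2 scale, less than the approximate standard error of either (0.44 for unc-79 and 0.38 for unc-80).

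The endoplasmic reticulum factor had the highest fold change of the complex. In the authors' deposited table, nlf-1 (WBGene00018854) stood at 4.31 (log2 fold change), or 19.8-fold (interval 8.07 to 48.8-fold, adjusted p = 0.00382). It had the widest interval of the 5 genes as well, with an approximate standard error of 0.54. In descending order the genes ran nlf-1, unc-77, unc-79, unc-80 and nca-2. The intervals overlapped in all 10 pairs, and the steps between neighbours in the order were 0.10, 0.74, 0.09 and 0.08 on the log2 scale. Among all 12072 genes of the authors' deposited table, 249 had a higher log2 fold change than nlf-1 and 469 had a higher one than nca-2.

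**Figure D1:**
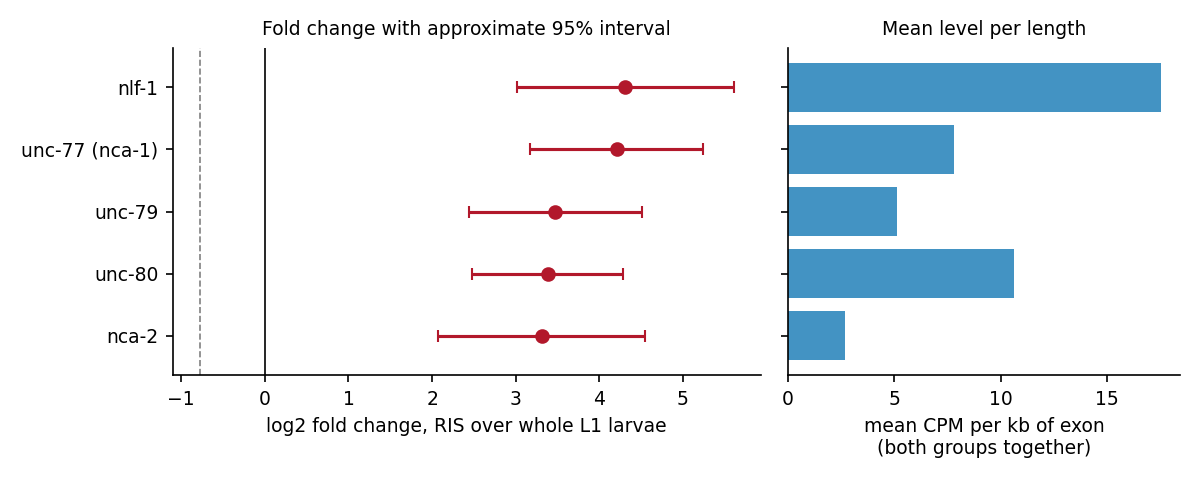
Left, log2 fold change of RIS over whole L1 larvae for the 5 genes (points) with approximate 95% intervals (bars); the solid line marks 0 and the dashed line the median of all genes, −0.78. Right, mean CPM per kb of exon over both groups (bars); the fold changes lie between 3.31 and 4.31 with overlapping intervals, while the levels run from 2.66 for nca-2 to 17.5 for nlf-1.

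The levels of the 5 genes differed more than their fold changes did. The mean level over both groups, back-transformed from log2 CPM, was 109 CPM for unc-80, 46.2 CPM for unc-77, 33.4 CPM for unc-79, 31.7 CPM for nlf-1 and 14.9 CPM for nca-2 in the authors' deposited table. The genes differ in length, so levels were compared per kb of merged exon sequence in the Ensembl annotation. On that scale the short gene nlf-1 came first with a mean of 17.5 CPM per kb. It was followed by unc-80 with 10.6, unc-77 with 7.82, unc-79 with 5.11 and nca-2 with 2.66 CPM per kb. The median over the 12052 genes with an annotated length was 7.81 CPM per kb, so nlf-1 and unc-80 lay above it, unc-77 on it and unc-79 and nca-2 below it. Of the pore subunits, nca-2 was the lower one on both scales. These levels average RIS and whole larvae, have no error, and give no level within RIS alone. Dividing by the longest transcript instead left the order as it was, with 8.06 for unc-77 and 10.8 CPM per kb for unc-80.

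**Figure D2:**
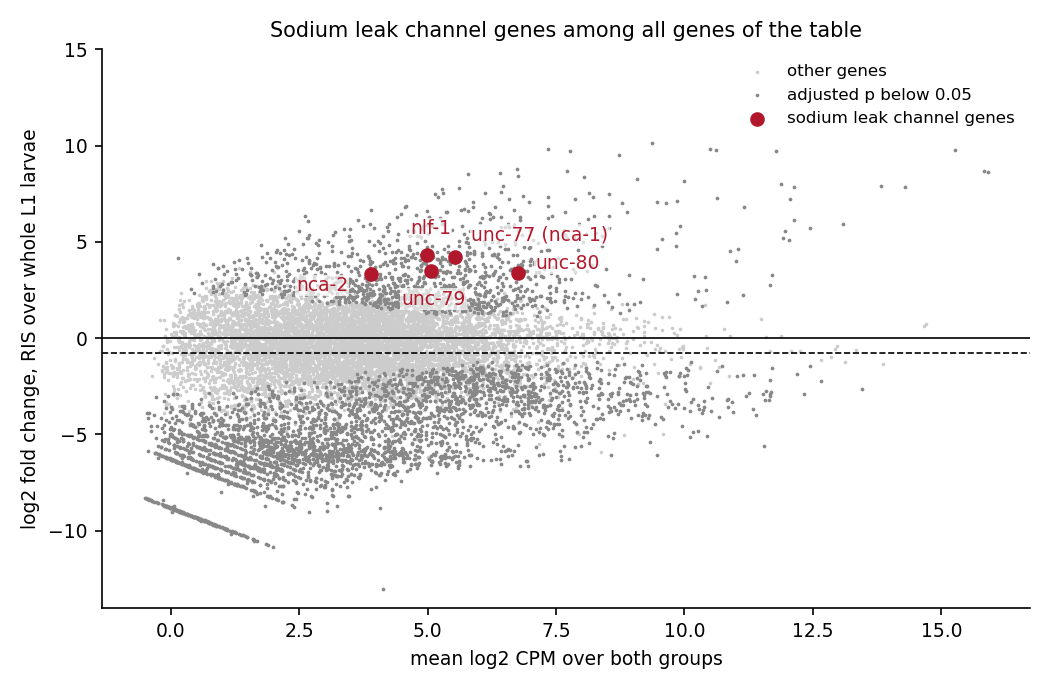
Log2 fold change of RIS over whole L1 larvae (vertical axis) against mean log2 CPM over both groups (horizontal axis), with 1 point per gene of the 12072; dark grey points have an adjusted p below 0.05. The 5 channel genes (red) lie together at log2 fold changes from 3.31 to 4.31 while their mean log2 CPM runs from 3.90 for nca-2 to 6.77 for unc-80; the dashed line marks the median of all genes, −0.78.

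The genes lie on 4 chromosomes. By the positions in the authors' deposited table, which names no build, nca-2 spans III 4965571 to 4979729 and unc-79 spans III 4066717 to 4082794, both on the forward strand. There unc-80 spans V 20879854 to 20898906 on the forward strand, nlf-1 spans X 1012731 to 1017567 on the reverse strand, and unc-77 spans IV 6157310 to 6183857 on the reverse strand. Ensembl release 115, on WBcel235, has all 5 as protein-coding and on the same chromosomes, with ends that differ from the table by at most 253 bases. The merged exons number 31 for unc-77 and 23 for nca-2, which has about the same exon length (5.61 kb against 5.91 kb) in a gene of 14.2 kb rather than 26.6 kb. The longest exon length is that of unc-80, 10.3 kb in 37 merged exons, followed by unc-79 with 6.54 kb in 26, and the shortest is that of nlf-1, 1.81 kb in 8. Annotated transcripts number 16 for unc-77, 5 for unc-80, 4 for unc-79, 2 for nca-2 and 1 for nlf-1, and the table does not separate them.

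**Figure D3:**
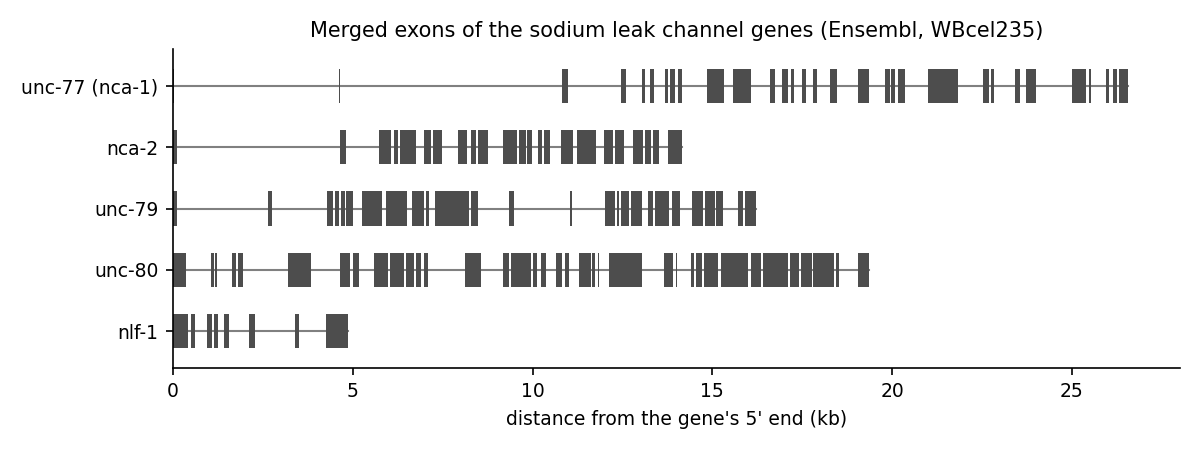
Merged exons (boxes) and the remaining gene span (lines) of the 5 genes, drawn to scale by distance in kb from each gene's 5′ end. The gene unc-77 spans 26.6 kb with long introns near its 5′ end, and nlf-1 spans 4.85 kb.

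Other annotated genes overlap the 5, and it is unknown whether reads were counted by strand. Within the span of unc-77 the Ensembl annotation lists 68 further genes, 63 of them piRNA genes, and none of the 68 is in the authors' deposited table. The overlap with its exons is at most 21 bases per gene. At its 3′ end unc-80 shares 109 exon bases, 1.06% of its exon length, with amx-3 on the opposite strand. The gene amx-3 had a log2 fold change of −3.41 that was not called (adjusted p = 0.0739) in the authors' deposited table, opposite in sign to unc-80.

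Genes used by neurons in general were mostly higher in the same table. Of 22 panneuronal genes 18 were higher and 0 lower, with a median log2 fold change of 3.16 in the authors' deposited table, where 9.84% of all genes were higher. They included unc-119 (5.82), the axonal kinesin gene unc-104 (4.09), the endophilin gene unc-57 (4.11) and the vesicle priming gene unc-13 (3.67) in the authors' deposited table. The kinesin heavy chain gene unc-116 (0.46) and the ankyrin gene unc-44 (−0.77) did not pass in the authors' deposited table. Against the all-gene median as zero, 20 of the 22 passed as higher, where 16.6% of all genes did. Among the 20 was unc-116 (adjusted p = 0.0428). The channel genes lay inside the range of this list. Of the 22 panneuronal genes 3 had a higher log2 fold change than nlf-1, 3 a higher one than unc-77, 8 than unc-79, 9 than unc-80 and 9 than nca-2 in the authors' deposited table. How far the values of the channel genes reflect the share of neurons in the reference was not tested.

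Signalling through the G protein Gq acts upstream of NCA channels in the worm, and its genes were higher or not called. Of 9 measured genes 6 were higher and 0 lower, beside 9.84% and 26.4% of all genes, with a median log2 fold change of 2.49 in the authors' deposited table. On the activating side, the Trio-like exchange factor gene unc-73 (2.46, adjusted p = 0.00563) and the phospholipase C-beta gene egl-8 (2.70, adjusted p = 0.00495) rose, by the authors' deposited table. The Gq gene egl-30 (0.82, adjusted p = 0.214) and the G protein activator gene ric-8 (1.36, adjusted p = 0.258) did not pass, by the authors' deposited table. The genes that act against Gq signalling, or inhibit the channel through Go, included higher members as well. The D2-like dopamine receptor gene dop-3, through which dopamine lowers NCA activity, rose by 4.0 on the log2 scale in the authors' deposited table, with an interval from 2.48 to 5.52 and an adjusted p of 0.00576. The Go gene goa-1 rose by 3.24 (adjusted p = 0.00360), by the authors' deposited table. The RGS gene eat-16 (2.49, adjusted p = 0.00702) and its G-beta-5 partner gene gpb-2 (2.50, adjusted p = 0.0103) rose, by the authors' deposited table. The diacylglycerol kinase gene dgk-1 (1.94, adjusted p = 0.0660) did not pass in the authors' deposited table, which has no row under the symbols egl-10 and grk-2. Taking the all-gene median as zero, egl-30 (adjusted p = 0.0330) and dgk-1 (adjusted p = 0.0212) passed the threshold too, making 8 of 9, where 16.6% of all genes were higher and 20.3% lower.

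Mutants of unc-79 and unc-80 have altered responses to volatile anaesthetics, a trait shared by mutants of a small set of other genes. Of 8 such genes 4 were higher and 1 lower, beside 9.84% and 26.4% of all genes, with a median log2 fold change of 1.96 in the authors' deposited table. The innexin gene unc-9 (3.66), the stomatin gene unc-1 (2.72), the syntaxin gene unc-64 (2.14) and goa-1, described above, rose in the authors' deposited table. The innexin gene unc-7 fell (adjusted p = 0.0157) to a position near that of genes without RIS reads, so no fold is given for it from the authors' deposited table. The degenerin gene unc-8 (1.78), the stomatin-like gene unc-24 (0.75) and gas-1, which encodes a subunit of mitochondrial complex I (−0.16), did not pass in the authors' deposited table. The gene goa-1 is also in the Gq list, and unc-64 is also in the panneuronal list.

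Voltage-gated calcium channels are the structural relatives of the NCA pore. Of 7 subunit genes 5 were higher and 1 lower, beside 9.84% and 26.4% of all genes, with a median log2 fold change of 2.76 in the authors' deposited table. The alpha1 subunit genes unc-2 (3.74) and egl-19 (2.89) and the alpha2-delta subunit genes tag-180 (3.53) and unc-36 (2.76) rose in the authors' deposited table. Of the 7 genes, 2 (unc-2 and tag-180) had a higher log2 fold change than nca-2, unc-79 and unc-80. None of the 7 lay above unc-77 or nlf-1. The T-type alpha1 gene cca-1 fell (−2.27, adjusted p = 0.0254) in the authors' deposited table, but against the all-gene median it did not pass (adjusted p = 0.0978).

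Leak currents of the opposite sign run through many tandem-pore-domain potassium channels, though not necessarily through each gene of the list, and no current was measured here. Of 34 genes 4 were higher and 6 lower, beside 9.84% and 26.4% of all genes, with a median log2 fold change of −1.23 in the authors' deposited table. The genes unc-58 (2.44), twk-17 (2.41) and twk-29 (2.09) rose in the authors' deposited table. Those that fell included twk-14 (−5.66, adjusted p = 0.00537), twk-34 (−5.85, adjusted p = 0.00588) and twk-10, for which no fold is given because it lay near the position of genes without RIS reads in the authors' deposited table. No gene of this family had a log2 fold change above that of nca-2, the lowest of the channel genes, in the authors' deposited table.

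Factors that serve other channels and receptors, as NLF-1 serves NCA, formed a further list. They are called endoplasmic reticulum factors here, though not every member need act in that compartment. Of 5 measured genes 1 was higher and 0 lower, beside 9.84% and 26.4% of all genes, with a median log2 fold change of 0.88 in the authors' deposited table. The acetylcholine receptor chaperone gene ric-3 rose (1.85, adjusted p = 0.0375), by the authors' deposited table. The genes unc-50 (2.20, adjusted p = 0.209), nra-4 (0.88), nra-2 (0.37) and emc-6 (−0.56) did not pass in the authors' deposited table. It has no row under the symbols unc-74 and crld-1.

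**Figure D4:**
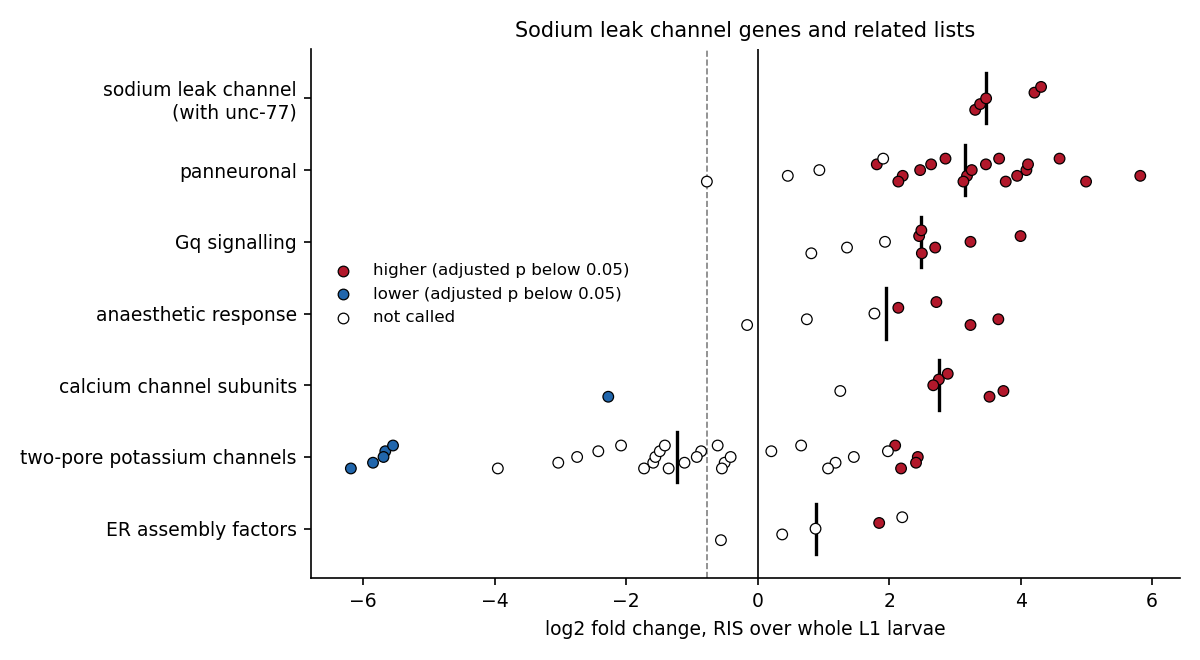
Log2 fold change of RIS over whole L1 larvae (horizontal axis) for the genes of each list (points; red higher, blue lower, white not called at an adjusted p of 0.05), with the list median (black bar), 0 (solid line) and the median of all genes, −0.78 (dashed line). The 5 channel genes lie between 3.31 and 4.31, inside the panneuronal range and above each tandem-pore-domain channel gene (labelled two-pore); unc-7 and twk-10 are not drawn but count in the medians.

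Genes most like the complex were sought by distance in log2 fold change and mean log2 CPM from the mean point of the 4 genes found by symbol (3.62 and 5.18), which uses 1 contrast over 6 libraries. The closest 5 with public names in the authors' deposited table were the neurexin gene nrx-1 (log2 fold change 3.64), the calcium-activated potassium channel gene kcnl-2 (3.58), the engulfment adaptor gene ced-6 (3.54), unc-9 (3.66) and the RIM-binding protein gene rimb-1 (3.74). Their distances from that point ran from 0.04 to 0.16. The channel genes themselves are spread around it, with mean log2 CPM from 3.90 for nca-2 to 6.77 for unc-80. The 5 named genes are thus close to the average of the complex and not to each of its members.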

How the data were processed

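RNA from 3 libraries of sorted RIS neurons and 3 of whole L1 larvae was compared by the authors in a single deposited table of 12072 genes and 12 columns. Its measures, per the file headers, are the log2 fold change, the mean log2 CPM over both groups, the F score, the p-value and the false discovery rate, as edgeR's quasi-likelihood test writes them; the positive sign of flp-11 fits RIS over reference. Aligner, counting tool, genome build and filters were not given in the sources used here. Depth per library, and so the precision it gives, is unknown. The p-value deposited by the authors was readjusted by Benjamini-Hochberg, with a largest difference of 3.44e-15 from their adjusted p. There were 0 unused columns of values per sample.

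A gene was called where the authors' adjusted p was below 0.05. An approximate standard error was had by dividing the size of the log2 fold change by the root of the F score that the authors deposited. Intervals of 95% used denominator degrees of freedom recovered from F and p (6.76 for most genes). The 170 genes with fewer lack reads in a group; none is a channel gene. Genes lower in RIS within 5 log2 units of the position of genes without RIS reads (1020 genes) get no fold; list medians rest only on these genes lying below the median. Members, lists and tests were chosen with earlier results of these data known. The Gq list was drawn up with 1 further gene, not reported here. Named genes are all members, all measured genes of the Gq and the anaesthetic lists, up to 4 (tandem-pore-domain channels 3) per direction of other lists by adjusted p, markers, flanking genes and the 5 most like; uncalled panneuronal and endoplasmic reticulum genes were chosen after their values were seen. Alternatives were other thresholds, other gene sets and the median of all genes as zero; counting unc-77 as a member was added after the table was seen. Software was scipy 1.17.1, pandas 2.3.3 and numpy 2.4.6 under Python 3.11.15, with figures from matplotlib 3.10.9.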

Additional observations from a re-analysis of the deposited data

How the results depend on the processing

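The 4 channel genes found by symbol, and unc-77, stayed higher at their threshold under an adjusted p of 0.01, recomputed adjustment, a minimum fold of 2, restriction to genes at or above median expression, the median of all genes as zero, and the removal of genes lacking reads in a group. Over these settings the adjusted p of nca-2, the largest of the 5, ran from 0.00351 to 0.00563. The settings could hardly have changed these calls and are not independent checks. The lowest fold of the 5 genes was 9.91, and the recomputed adjustment equals that of the authors. None of the 5 lacks reads in a group. All lie above the median log2 CPM of 3.57, the lowest being nca-2 at 3.90. With the median of all genes as zero, the log2 fold change of each channel gene rose by the same amount by construction and their median went from 3.43 to 4.21, and the share of calls that were higher rose from 27.18% to 44.97%. Related lists moved more. At an adjusted p of 0.01, 4.9% of all genes were higher. The higher calls became 0 of 5 endoplasmic reticulum factors, 2 of 8 anaesthetic genes and 1 of 34 tandem-pore-domain channels. The lower calls became 0 of 8 anaesthetic genes and 0 of 7 calcium channel genes, and no all-gene share of lower calls is given at that threshold. Among genes at or above median expression fewer genes are tested, and no all-gene share is given. The lower calls became 0 of 6 anaesthetic genes, 0 of 5 calcium channel genes and 1 of 9 tandem-pore-domain channels, which kept 2 higher. The genes unc-7 (mean log2 CPM 0.66) and cca-1 (3.51) were not tested there, because they lie below the median of 3.57. Relative to the median of all genes, 2 endoplasmic reticulum factors were higher and 0 calcium channel genes lower. Leaving out libraries was not run, because the table holds no values per library. No paired analysis was possible because the table has no columns per sample.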

Other observations

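Of the 10 genes that flank the 5 channel genes on their chromosomes, 1 was higher, 2 were lower and 7 did not pass in the authors' deposited table. These shares are near those of all genes, 9.84% higher and 26.4% lower. The higher one was kin-19, which encodes a casein kinase of the CK1 family and lies 1209 bases beyond unc-79 on the opposite strand. It had a log2 fold change of 3.45 (adjusted p = 0.00434), beside 3.47 for unc-79, in the authors' deposited table. The lower ones were the acyl-CoA synthetase family gene acs-12 beyond unc-80 (−3.96, adjusted p = 0.0105) and cutl-21 beside nlf-1 in the authors' deposited table. There cutl-21 had a log2 fold change of −4.26 (adjusted p = 0.0224) at a low mean log2 CPM of 0.65. Next to unc-77, C11D2.4 (−1.74, adjusted p = 0.335) lay 350 bases away on the same strand and did not pass in the authors' deposited table.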
